A study of Mus musculus with 12 samples.

Results

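RNA in the mitochondrial preparation of C17.2 cells was compared between 2 h of neural induction and 0 h. C17.2 is an established mouse line of multipotent neural stem cells, labelled as CD1 x C57BL/6. The 2 h libraries came from cells moved into Knockout DMEM with GlutaMAX and N2 supplement for 2 h. The 0 h libraries came from cells at the start of that induction; the growth medium was DMEM/F12 with fetal bovine serum. Each group held 2 libraries, which the design text calls biological replicates, and no group was a change of medium without induction. The series also holds mitochondrial libraries at 1 h and nuclear libraries at 0, 1 and 2 h, 2 libraries per group, used here for the spread and for values set beside the main comparison. All 12 libraries were made from RNA depleted of ribosomal RNA. The comparison covers every gene with at least 1 read in at least 2 of the 12 libraries, which left 21079 of 35321 genes.

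Moving cells from serum to a defined medium takes away growth factors, serum lipids and binding proteins, and changes the supply of amino acids, glucose and metals. Cells read such changes through several known routes: the integrated stress response, in which ATF4 switches on genes of amino acid supply; glucose-sensing factors that switch on the alpha-arrestins; immediate early genes downstream of growth factor receptors; and the clock genes, which respond to medium changes. Most RNAs for mitochondrial proteins are transcribed in the nucleus, and some are known to be carried on the outer mitochondrial membrane. Only 13 proteins, with the ribosomal and transfer RNAs that read their messages, are encoded in mitochondrial DNA itself.

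The label of the preparation was checked first. The gene table lists 13 mitochondrial genes, and all were at 0 reads in every library, so RNA from mitochondrial DNA could be read only from a smaller transcript table in FPKM, which holds 33 mitochondrial transcripts. These made up 2.72% and 2.52% of the summed FPKM in the 2 h mitochondrial libraries, against 4.41% and 3.73% in the 0 h mitochondrial libraries. In the nuclear libraries they made up 2.19% and 1.93% at 2 h, against 3.61% and 3.46% at 0 h. The mitochondrial share was thus only slightly above the nuclear one at either time, and it was lower at 2 h than at 0 h in both preparations.

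Of the 33 mitochondrial transcripts, 31 were lower in both 2 h mitochondrial libraries than in both 0 h mitochondrial libraries. The median ratio of 2 h to 0 h was 0.616 over all of them, 0.759 over the 13 messenger RNAs and 0.475 over the 18 transfer RNAs. The small ribosomal RNA mt-Rnr1 had 14506 and 13592 FPKM at 2 h, against 21380 and 18691 FPKM at 0 h. For mt-Co1, a subunit of cytochrome oxidase, the values were 889 and 841 FPKM at 2 h, against 1221 and 1060 FPKM at 0 h. The ATP synthase subunit mt-Atp6 had 79.0 and 71.6 FPKM at 2 h, against 124 and 120 FPKM at 0 h. In each of these the groups did not overlap. The exceptions were mt-Nd4, a complex I subunit with 15.7 and 17.8 FPKM at 2 h against 8.64 and 9.34 FPKM at 0 h, and the transfer RNA mt-Tl2, with 3.37 and 0.26 FPKM at 2 h against 0.20 and 0.26 FPKM at 0 h, where a single library stood apart. FPKM values in this table depend on what remained of other abundant RNA, such as the ribosomal RNA Rn18s at 191645 and 189020 FPKM at 2 h against 175370 and 176783 FPKM at 0 h, and no test was made on them.

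RNAs that are retained in the nucleus were present in the mitochondrial preparation. Malat1, a long non-coding RNA of nuclear speckles, had 308 and 298 RPM at 2 h and 419 and 367 RPM at 0 h in the mitochondrial libraries, and 627 and 545 RPM at 2 h and 796 and 752 RPM at 0 h in the nuclear libraries. RPM, reads scaled to the total of all reads of the library, is given here after quantile normalization of the 12 libraries. Malat1 was therefore lower in the mitochondrial than in the nuclear preparation but of the same order. How much of any change below took place in RNA attached to mitochondria, and how much in other RNA in the preparation, was not tested.

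The reads in genes numbered 5661994 and 5565814 in the 2 h mitochondrial libraries, against 6410286 and 6489656 in the 0 h mitochondrial libraries. They were 15.8% and 15.2% of all reads at 2 h, against 21.2% and 18.9% at 0 h. The pair of 2 h libraries were close to each other, with 8 genes of at least 50 reads apart by over 1 log2 unit, while the pair of 0 h libraries had 193 such genes. Mitochondria 0 h replicate 2 is 1 of 4 libraries of the series with few reads on genes that have processed pseudogene copies: Rpl17 had 2465 and 2565 reads at 2 h, against 2078 and 13 reads in 0 h replicates 1 and 2. Gapdh likewise had 5110 and 5226 reads at 2 h, against 5396 and 179 reads at 0 h. Genes of this kind are not read as changed below, and counts without this library are given for some of the lists.

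Markers of progenitor cells were present at both times. Nes, which encodes nestin, an intermediate filament of neural progenitors, had 101 and 102 RPM at 2 h against 118 and 128 RPM at 0 h, and fell by 0.28 ± 0.06 on the log2 scale (SE; limma adjusted p = 0.014). Sox2, a transcription factor of neural stem cells, had 4.73 and 4.61 RPM at 2 h against 6.71 and 6.81 RPM at 0 h and did not pass (adjusted p = 0.087), and Pax6 was at 0 reads in these 4 libraries. Of 12 progenitor markers 2 rose and 2 fell, of 9 neuronal markers 2 rose, of 11 glial markers 2 rose and 1 fell, and none of 5 endothelial and immune markers passed. With any 1 of the 4 libraries left out between 0 and 2 progenitor markers rose and at most 1 fell. The neuronal pair were Nefm, a neurofilament subunit, with 9.66 and 9.45 RPM at 2 h against 5.16 and 5.72 RPM at 0 h, and Tubb3, a neuronal tubulin, with 10.5 and 10.4 RPM at 2 h against 6.92 and 8.03 RPM at 0 h. The median log2 fold change of the 9 neuronal markers was -0.13, and -0.25 on the deposited scale, where 1 rose. With any 1 of the 4 libraries left out this median lay between -0.18 and -0.06. The endothelial and immune markers summed to 1.36 and 1.31 RPM at 2 h, against 1.5 and 1.82 RPM at 0 h. In bulk libraries, fewer cells that hold an RNA and less of that RNA per cell cannot be told apart.

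Over all tested genes, 981 rose and 1429 fell at 2 h against 0 h (limma with Benjamini-Hochberg adjusted p under 0.05), which is 4.65% and 6.78% of the genes. Most changes were moderate: 268 of the rises and 222 of the falls were larger than 2-fold, the median log2 fold change was 0.61 among rises and -0.53 among falls, and over all tested genes it was 0. In every called gene both 2 h libraries lay on the same side of both 0 h libraries, which also held for 47.2% of all genes tested. Of the calls, 886 rises and 1269 falls were in protein-coding genes. The 9954 genes with a mean of at least 50 reads gave 807 of the rises and 1244 of the falls. In most lists below, most members are such genes, so their counts are to be read beside these shares.

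The balance of rises and falls rests on the scaling. On the deposited scale, RPM without that normalization, the median gene was lower by 0.27 log2 units at 2 h, and 358 genes rose while 5375 fell. With median centring the counts were 861 rises and 2362 falls. Changes are therefore given after quantile normalization, relative to that shift. Counts of lists on the deposited scale are to be read beside the 358 rises and 5375 falls among 21079 genes there. Quantile normalization also gives abundant genes nearly fixed ranks. Actb, cytoplasmic actin, had 1470 RPM in all 4 libraries. Col1a1, a fibrillar collagen chain, had 1615 RPM in all 4, while its log2 fold change on the deposited scale was -0.71. Equal values also occurred at lower levels, as in Flna, filamin A (281 and 281 RPM at 2 h), and Ncl, nucleolin (398 and 398 RPM at 2 h). The size and SE of such changes rest in part on the scaling. The Ncl log2 fold change was 0.53 here, 0.18 with median centring and -0.11 on the deposited scale. That of Flna was -0.48, -0.7 and -0.98. Leaving out any 1 of the 4 libraries compared brought the counts to between 543 and 585 rises and between 651 and 903 falls. The 8 libraries outside the pseudogene split, which leave only replicate 1 at 0 h, gave 83 rises and 41 falls. The p-values measure the spread between these libraries only.

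**Figure D1:**
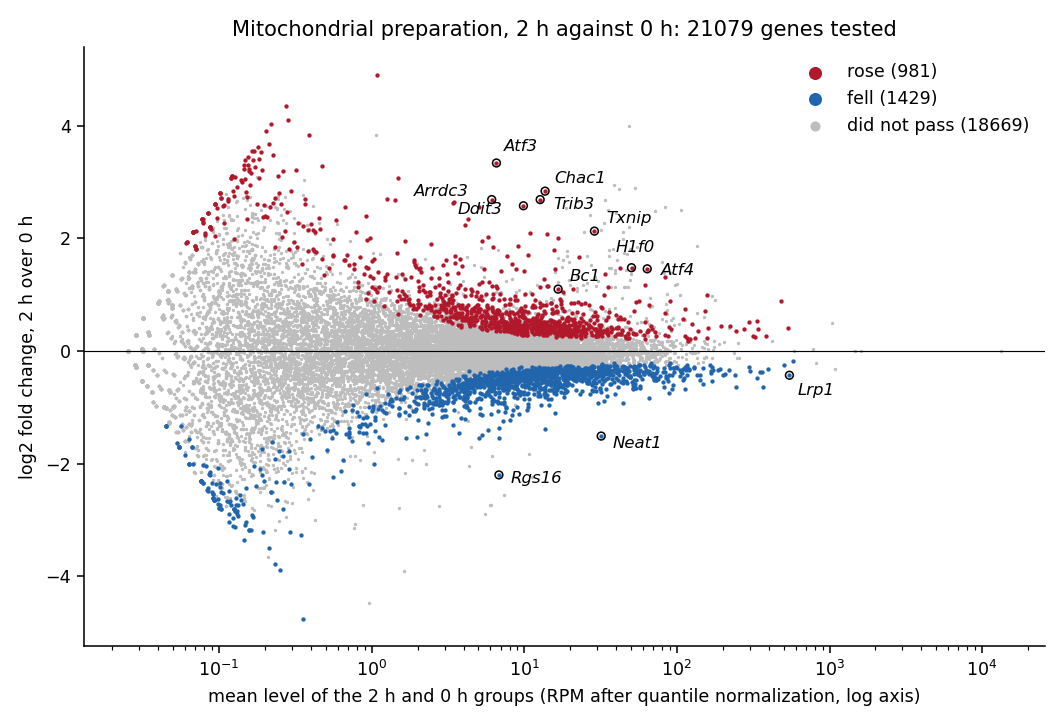
Log2 fold change at 2 h over 0 h in the mitochondrial preparation (vertical axis) against the mean RPM of both groups (log axis), one point per tested gene, with genes past the limma threshold coloured by direction. The log2 fold changes of all tested genes, 981 rises and 1429 falls among them, run from -4.76 to 4.91, and most of the largest in either direction lie at low levels.

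Genes of the integrated stress response were among the largest rises. Of 26 effectors of ATF4 and CHOP, 18 rose and 1 fell, against 4.65% and 6.78% of all genes, and their median log2 fold change was 1.39 against 0 for all tested genes. On the deposited scale 17 rose and 2 fell, and leaving out any 1 of the 4 libraries left between 14 and 18 rises. In the nuclear preparation the median of the same 26 genes was 1.37.

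Upstream in this route is Atf4, the transcription factor whose translation rises when initiation is restrained. Atf4 had 92.7 and 95.0 RPM at 2 h against 32.8 and 35.3 RPM at 0 h, a log2 fold change of 1.46 ± 0.06 (adjusted p = 9.2e-08). Its 1 h values, 64.5 and 60.4 RPM, lay between those at 0 h and at 2 h. Atf3 (ENSMUSG00000026628, chromosome 1, 191170296 to 191218039, minus strand, GRCm38), a stress-induced repressor of the same family, had 10.8 and 12.9 RPM at 2 h against 0.844 and 1.62 RPM at 0 h, 10.1-fold higher (log2 3.34 ± 0.26, adjusted p = 1.6e-05). Ddit3 (ENSMUSG00000025408, chromosome 10, 127290774 to 127296288, plus strand), which encodes the pro-apoptotic factor CHOP, had 16.5 and 17.4 RPM at 2 h against 2.76 and 2.91 RPM at 0 h, 5.98-fold higher (adjusted p = 2.2e-07). The 3 factors were higher in both 2 h libraries than in either 0 h library. Atf5, a related factor that is also controlled through its translation, had a log2 fold change of 0.02 and did not pass.

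Among the effectors, Chac1 (ENSMUSG00000027313, chromosome 2, 119351229 to 119354381, plus strand), an enzyme that breaks down glutathione, had 23.9 and 24.0 RPM at 2 h against 3.50 and 3.22 RPM at 0 h. Its increase was 7.14-fold (log2 2.84 ± 0.10, adjusted p = 5.1e-08), and its 1 h values were 8.66 and 9.08 RPM. Trib3 (ENSMUSG00000032715, chromosome 2, 152337422 to 152344032, minus strand), a pseudokinase that dampens ATF4 and AKT, had 21.3 and 22.6 RPM at 2 h against 3.55 and 3.25 RPM at 0 h, 6.47-fold higher (adjusted p = 4.4e-07). Both genes therefore had little variation between replicates beside the size of the change. Sesn2, an inhibitor of mTORC1 that senses leucine, had 27.0 and 26.1 RPM at 2 h against 6.55 and 6.70 RPM at 0 h (log2 2.00 ± 0.12). Ppp1r15a, which encodes GADD34, the phosphatase subunit that ends the response, had 13.8 and 14.5 RPM at 2 h against 3.79 and 4.01 RPM at 0 h (log2 1.86 ± 0.09). Ddit4, another inhibitor of mTORC1, had 48.0 and 48.7 RPM at 2 h against 15.6 and 22.3 RPM at 0 h (log2 1.37 ± 0.13). In all 3 the groups were far apart relative to the replicates, with limma adjusted p-values of 1.8e-06, 4.4e-07 and 9.7e-05.

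The rises reached beyond this core. Nupr1, a stress-induced chromatin protein, had 14.5 and 14.6 RPM at 2 h against 5.77 and 5.11 RPM at 0 h, Herpud1, which takes part in the degradation of endoplasmic reticulum proteins, had 27.5 and 29.4 RPM at 2 h against 12.8 and 13.7 RPM at 0 h, and Vegfa, an angiogenic growth factor, had 21.5 and 23.5 RPM at 2 h against 11.2 and 13.1 RPM at 0 h. Each of the 3 passed with separate groups. Fgf21, a secreted stress hormone, had 75 and 58 reads at 2 h against 0 and 6 reads at 0 h and passed at adjusted p = 0.011, so its fold change is poorly determined. The only fall was Tnfrsf10b, a death receptor and known CHOP target, with 4.45 and 4.75 RPM at 2 h against 7.34 and 6.72 RPM at 0 h (log2 -0.61 ± 0.11, adjusted p = 0.0048). Among those that did not pass, Gdf15, another secreted stress hormone, had 12 and 1 reads at 2 h against 1 and 0 reads at 0 h.

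Several of these promoters hold the core of the C/EBP-ATF response element, the sequence through which ATF4 is known to act. The core was searched as TGATGNAA on both strands in windows from 250 bases before to 50 bases after each RefSeq gene start (GRCm38.p6). It occurred in at least 1 window of 8 of the 21 stress effectors that have one, 38.1%, and in 4.51% of all 27025 genes with a window. The 8 genes were Atf3, Chac1, Fgf21, Herpud1, Nupr1 and Trib3, which rose, and Jdp2 and Vldlr, which did not pass. Most effectors without the core rose too: Atf4, Cebpb, Cebpg, Ddit3, Ddit4, Gadd45a, Ppp1r15a, Sesn2, Stc2 and Vegfa. Atf5, Bbc3 and Gdf15, also without it, did not pass. The core thus did not set apart the effectors that rose. The list holds known effectors of ATF4 and CHOP, so its share with the core is not a result of these data. The windows of the genes with the largest changes are shown 5′ to 3′ on the gene's strand with the match in capitals; all 3 matches read on the opposite strand. The match began at position -110 in Atf3 (chr1:191183284-191183583, minus strand), at position -193 in Chac1 (chr2:119350992-119351291, plus strand) and at position 15 in Trib3 (chr2:152344011-152344310, minus strand), each relative to the start. A match is a description of the sequence only.
Atf3 promoter: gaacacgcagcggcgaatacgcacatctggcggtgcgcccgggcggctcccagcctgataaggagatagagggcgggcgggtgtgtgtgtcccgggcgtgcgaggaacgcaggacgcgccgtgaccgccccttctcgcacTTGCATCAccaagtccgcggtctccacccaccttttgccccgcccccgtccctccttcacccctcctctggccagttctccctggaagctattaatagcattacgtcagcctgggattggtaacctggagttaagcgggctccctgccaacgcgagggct
Chac1 promoter: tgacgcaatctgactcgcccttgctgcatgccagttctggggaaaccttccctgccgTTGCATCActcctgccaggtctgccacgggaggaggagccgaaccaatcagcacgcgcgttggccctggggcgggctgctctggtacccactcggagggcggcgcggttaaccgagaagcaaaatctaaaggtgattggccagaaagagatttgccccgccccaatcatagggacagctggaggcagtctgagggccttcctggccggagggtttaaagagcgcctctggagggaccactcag
Trib3 promoter: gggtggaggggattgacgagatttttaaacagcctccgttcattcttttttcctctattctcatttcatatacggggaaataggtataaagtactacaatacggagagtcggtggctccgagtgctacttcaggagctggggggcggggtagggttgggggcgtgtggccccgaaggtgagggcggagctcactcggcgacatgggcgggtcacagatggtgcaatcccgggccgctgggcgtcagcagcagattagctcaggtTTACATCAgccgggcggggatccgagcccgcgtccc

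Genes of amino acid supply moved less. Of 18 enzymes of amino acid synthesis 7 rose and none fell, with a median of 0.25 that turned to -0.09 on the deposited scale, where 2 rose and 6 fell. Mthfd2, a mitochondrial enzyme of one-carbon metabolism, had 28.3 and 30.2 RPM at 2 h against 16.4 and 15.7 RPM at 0 h (log2 0.87 ± 0.07, adjusted p = 1.7e-05). Asns, asparagine synthetase, had 47.2 and 46.1 RPM at 2 h against 34.7 and 35.1 RPM at 0 h (log2 0.42 ± 0.07, adjusted p = 0.0042), a change close to 0 on the deposited scale (0.08). Both genes were separate between groups, but Asns moved far less than Chac1 or Trib3. Psat1 and Shmt2, enzymes of serine synthesis and use, had log2 fold changes of 0.15 and 0.10 and did not pass, and Phgdh, the first enzyme of serine synthesis, had 51.7 and 52.7 RPM at 2 h against 47.9 and 31.4 RPM at 0 h, where the pair of 0 h libraries were far apart.

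Of 22 amino acid transporters 4 rose and 3 fell, with a median of 0.01, and on the deposited scale 3 rose and 9 fell. Slc3a2, the heavy chain shared by several exchangers, had 72.9 and 74.6 RPM at 2 h against 38.7 and 41.3 RPM at 0 h (log2 0.88 ± 0.08, adjusted p = 4.8e-05). Its partners Slc7a5 and Slc7a11 had log2 fold changes of 0.16 and 0.39 and did not pass in the mitochondrial preparation. Slc38a2, a sodium-coupled importer of neutral amino acids and a known ATF4 target, had 59.0 and 58.0 RPM at 2 h against 80.7 and 87.4 RPM at 0 h and fell by 0.52 ± 0.08 (adjusted p = 0.0017). The rises were 18.2% and the falls 13.6% of the 22 transporters, against 4.65% and 6.78% of all genes. The 9954 genes with at least 50 reads gave 807 rises and 1244 falls. Of 20 cytosolic aminoacyl-tRNA synthetases, the enzymes that charge transfer RNAs, 7 rose and none fell, with a median of 0.14 that turned to -0.24 on the deposited scale, where 10 fell. Aars, the alanyl enzyme, had 76.0 and 80.3 RPM at 2 h against 55.3 and 59.3 RPM at 0 h (log2 0.45 ± 0.07, adjusted p = 0.002). Without mitochondria 0 h replicate 1, 2 h replicate 1 or 2 h replicate 2, 3, 2 and 2 of these synthetases rose.

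Most genes of endoplasmic reticulum chaperones fell. Of 21 genes of the unfolded protein response 15 fell and 1 rose, with a median of -0.35, and 19 fell on the deposited scale. Hspa5, which encodes the chaperone BiP, had 118 and 116 RPM at 2 h against 141 and 142 RPM at 0 h (log2 -0.28 ± 0.07, adjusted p = 0.025). Syvn1, a ubiquitin ligase of this compartment, had 9.81 and 10.1 RPM at 2 h against 15.6 and 15.4 RPM at 0 h (log2 -0.64 ± 0.07, adjusted p = 0.00033). The rise was Ern1, which encodes the sensor IRE1, with 8.31 and 8.48 RPM at 2 h against 5.98 and 6.13 RPM at 0 h, while its target Xbp1 had a log2 fold change of 0.01. These changes were small beside those of the ATF4 effectors, and leaving out any 1 of the 4 libraries left between 8 and 10 falls and no rise.

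**Figure D2:**
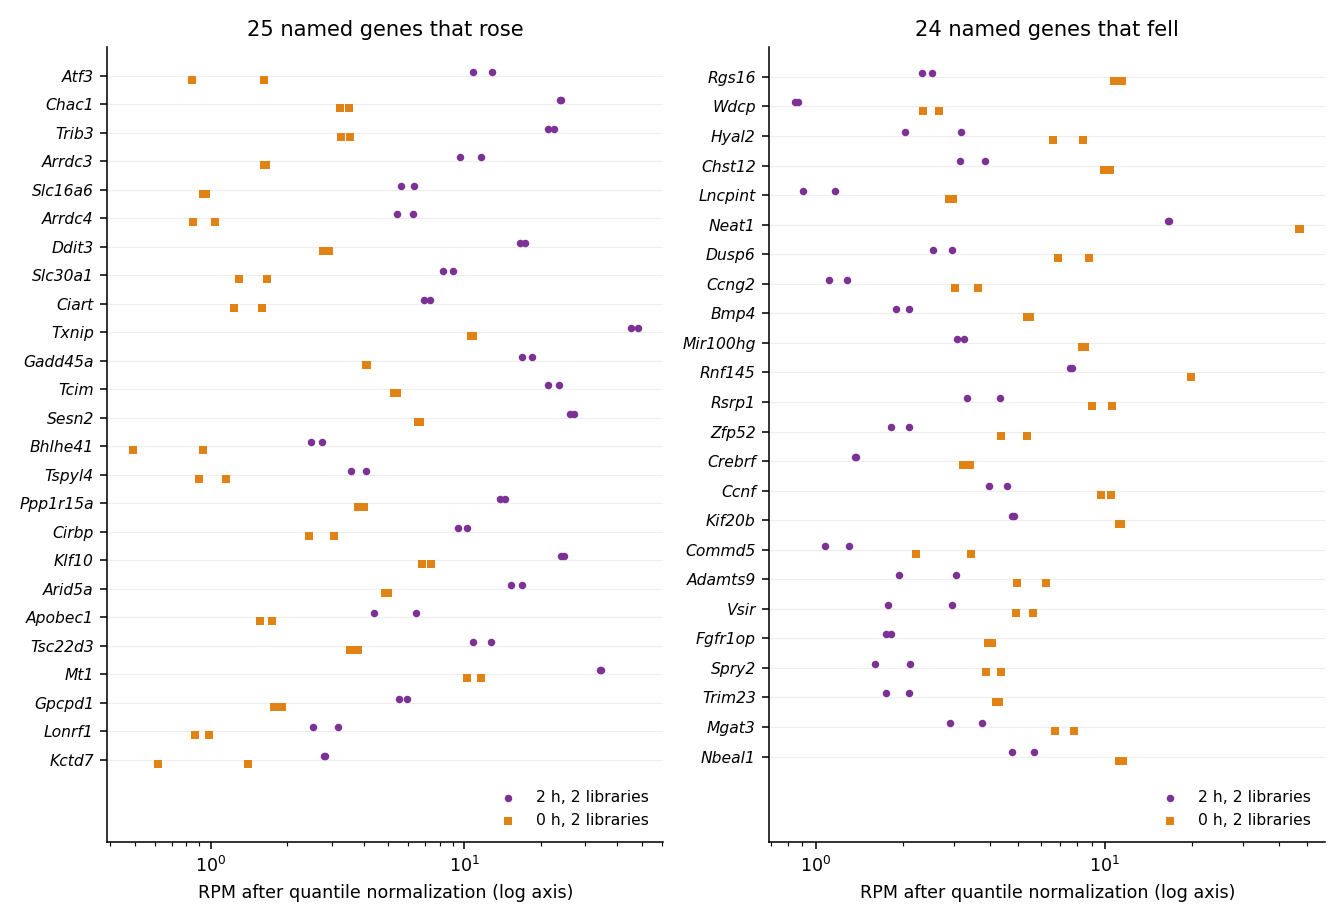
RPM after quantile normalization (log axis) in each 2 h and 0 h mitochondrial library for the 25 named genes with the largest rises (left) and 24 of those with the largest falls (right). In each gene both 2 h points lie on one side of both 0 h points, from Atf3 (10.8 and 12.9 RPM at 2 h, against 0.844 and 1.62 RPM at 0 h) to Rgs16 (2.34 and 2.52 RPM at 2 h, against 11.5 and 10.8 RPM at 0 h).

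The alpha-arrestins, adaptors that send nutrient transporters to the lysosome and of which Txnip is the best known, rose in 4 of 5 members, with a median of 2.13. On the deposited scale 4 rose, as did 4 with any 1 of the 4 libraries left out. Txnip, which restrains glucose uptake and binds thioredoxin, had 48.3 and 45.6 RPM at 2 h against 10.6 and 10.8 RPM at 0 h (4.39-fold, adjusted p = 6e-08). Arrdc3, an adaptor that acts on the beta-adrenergic receptor, had 11.6 and 9.59 RPM at 2 h against 1.62 and 1.65 RPM at 0 h (6.44-fold, adjusted p = 3.5e-07). Arrdc4, a close relative of Txnip, had 6.24 and 5.42 RPM at 2 h against 1.04 and 0.846 RPM at 0 h (6.2-fold, adjusted p = 5.1e-06). The groups were separate in all 3. At 1 h Txnip had 52.2 and 46.0 RPM and Arrdc3 20.7 and 18.1 RPM, at or above their 2 h values. Arrdc1 had 0.812 and 1.08 RPM at 2 h against 1.12 and 1.12 RPM at 0 h and did not pass.

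Genes of transport followed no single direction. Slc16a6, a transporter of the monocarboxylate family, had 5.61 and 6.30 RPM at 2 h against 0.931 and 0.958 RPM at 0 h (6.29-fold, adjusted p = 2.3e-06). Slc2a1, the glucose transporter GLUT1, had 8.26 and 7.54 RPM at 2 h against 11.6 and 13.0 RPM at 0 h and fell by 0.64 ± 0.10 (adjusted p = 0.0026). Of 18 glucose and monocarboxylate transporters 2 rose and 1 fell, which is 11.1% and 5.6%, against 4.65% and 6.78% of all genes. With any 1 of the 4 libraries left out 1 rose, and on the deposited scale 3 rose and 5 fell. Of 20 zinc transporters and metallothioneins 2 rose and 6 fell (2 and 12 on the deposited scale). The rises were Slc30a1, the zinc exporter of the plasma membrane, with 8.23 and 9.03 RPM at 2 h against 1.29 and 1.67 RPM at 0 h (5.88-fold, adjusted p = 2.2e-06), and the zinc-binding Mt1, with 34.6 and 34.3 RPM at 2 h against 10.2 and 11.6 RPM at 0 h (log2 1.67 ± 0.09, adjusted p = 5.7e-07). Both are known targets of the zinc-sensing factor MTF1. Among the falls was Slc39a10, a zinc importer, with 10.2 and 12 RPM at 2 h against 18.2 and 17.5 RPM at 0 h; the falls numbered 4 without mitochondria 2 h replicate 2.

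Of 21 clock genes 8 rose and none fell, with a median of 0.43, which was 0.12 on the deposited scale, where 7 rose and 4 fell. Ciart, a repressor of the clock, had 6.94 and 7.31 RPM at 2 h against 1.23 and 1.59 RPM at 0 h (5.1-fold, adjusted p = 1.5e-05). Per2, a core repressor, had 8.45 and 7.94 RPM at 2 h against 3.50 and 3.52 RPM at 0 h (log2 1.22 ± 0.11, adjusted p = 4.4e-05). Nfil3, a repressor in an output arm, had 10.8 and 9.70 RPM at 2 h against 3.37 and 4.33 RPM at 0 h (log2 1.43 ± 0.14, adjusted p = 0.00013). The 8 rises were all of repressors: Ciart, Per1, Per2, Cry1, Cry2, Nfil3, Bhlhe40 and Bhlhe41. The activators Clock and Arntl had log2 fold changes of -0.15 and 0.43, the output gene Dbp had -0.01, and Nr1d1, also a repressor, had -0.32. None of the 4 passed. The Ciart and Arrdc4 promoters hold the E-box CACGTG, a palindrome bound by CLOCK and BMAL1 and, in a related form, by the glucose-sensing factors, with 3 copies in Ciart (chr3:95882179-95882478, minus strand; first bases at positions -116, -58 and -44) and 1 in Arrdc4 (chr7:68749189-68749488, minus strand; position -193), in capitals below. CACGTG occurred in 5 of the 18 clock genes that have a window, 27.78%, in 1 of the 5 alpha-arrestins and in 8.09% of all genes with one.
Ciart promoter: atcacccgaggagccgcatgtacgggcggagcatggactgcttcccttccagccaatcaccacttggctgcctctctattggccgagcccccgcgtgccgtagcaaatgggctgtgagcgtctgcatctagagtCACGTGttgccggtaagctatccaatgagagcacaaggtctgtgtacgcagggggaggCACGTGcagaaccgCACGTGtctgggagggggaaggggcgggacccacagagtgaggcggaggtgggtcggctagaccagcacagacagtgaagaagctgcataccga
Arrdc4 promoter: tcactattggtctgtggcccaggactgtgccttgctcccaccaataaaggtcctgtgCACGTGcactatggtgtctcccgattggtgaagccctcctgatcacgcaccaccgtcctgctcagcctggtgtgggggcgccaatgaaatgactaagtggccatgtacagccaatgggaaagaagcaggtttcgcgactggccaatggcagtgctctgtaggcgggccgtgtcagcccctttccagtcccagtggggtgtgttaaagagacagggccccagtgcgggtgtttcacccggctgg

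Genes of growth arrest and of oxidative defence were next. Of 23 genes of the p53 response 8 rose and 2 fell, with a median of 0.30 that was -0.03 on the deposited scale, and Trp53 itself had a log2 fold change of -0.01. Cdkn1a, which encodes the cyclin-dependent kinase inhibitor p21, had 13.9 and 15.3 RPM at 2 h against 8.5 and 8.13 RPM at 0 h (log2 0.81 ± 0.08, adjusted p = 0.00013). Gadd45b, a stress sensor upstream of p38, had 22.5 and 24.0 RPM at 2 h against 8.40 and 8.59 RPM at 0 h (log2 1.45 ± 0.07, adjusted p = 3.5e-07), and its relative Gadd45a had 16.8 and 18.4 RPM at 2 h against 4.08 and 4.13 RPM at 0 h (log2 2.10 ± 0.13, adjusted p = 1.8e-06). Several of the 8, among them Sesn2 and Gadd45a, also belong to the ATF4 list. Without mitochondria 0 h replicate 2, 5 of them rose. Of 21 NRF2 targets 4 rose and 1 fell, with a median of 0.18 that turned to -0.17 on the deposited scale. The rises included Osgin1, which responds to oxidized lipids, with 4.97 and 5.49 RPM at 2 h against 1.59 and 1.94 RPM at 0 h (log2 1.57 ± 0.16, adjusted p = 0.00013), and Hmox1, heme oxygenase, with 10.2 and 10.8 RPM at 2 h against 5.51 and 5.50 RPM at 0 h (log2 0.93 ± 0.11, adjusted p = 0.00045). Nqo1, a quinone reductase used as the standard NRF2 readout, was at 0.344 and 0.452 RPM at 2 h against 0.381 and 0.239 RPM at 0 h and did not pass.

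FoxO targets are known to rise when insulin signalling is withdrawn. Whether insulin signalling went down, up or stayed level in these cells at 2 h was not tested. Of 22 such genes 4 rose and 7 fell, and on the deposited scale 1 rose and 14 fell. Tsc22d3, a FoxO and glucocorticoid target that encodes GILZ, had 10.8 and 12.7 RPM at 2 h against 3.52 and 3.79 RPM at 0 h (log2 1.68 ± 0.11). Irs2, an adaptor of the insulin receptor, had 12 and 12.9 RPM at 2 h against 19.2 and 21.4 RPM at 0 h (log2 -0.70 ± 0.13, adjusted p = 0.0052), and Insr, the receptor, had 14.2 and 12.9 RPM at 2 h against 19.1 and 21.8 RPM at 0 h (log2 -0.59 ± 0.10, adjusted p = 0.0027). Ccng2, an atypical cyclin linked to arrest, had 1.28 and 1.11 RPM at 2 h against 3.65 and 3.03 RPM at 0 h (log2 -1.48 ± 0.24, adjusted p = 0.0028). Receptor and adaptor thus fell in both libraries, as did other genes that FoxO is known to raise. The falls numbered 4 without mitochondria 0 h replicate 2, and the rises 2 with any 1 of the 4 libraries left out.

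Of 37 immediate early genes 6 rose and 5 fell at 2 h, and on the deposited scale 5 rose and 14 fell. The rises were 16.2% and the falls 13.5% of the list, against 807 and 1244 of 9954 genes with at least 50 reads. Egr1, a zinc finger factor induced within minutes by serum, had 3.30 and 3.73 RPM at 2 h against 5.44 and 5.40 RPM at 0 h (log2 -0.63 ± 0.10, adjusted p = 0.002), and Fos, a subunit of AP-1, had 0.903 and 1.02 RPM at 2 h against 1.62 and 1.84 RPM at 0 h (log2 -0.85 ± 0.21, adjusted p = 0.021). At 1 h Egr1 had 24.3 and 23.4 RPM and Fos 3.58 and 3.35 RPM, above both other times. Klf10, a factor downstream of TGF-beta, had 24.1 and 24.7 RPM at 2 h against 7.38 and 6.78 RPM at 0 h (log2 1.79 ± 0.09), and Ier2, an early nuclear factor, had 9.31 and 8.85 RPM at 2 h against 3.93 and 4.47 RPM at 0 h (log2 1.12 ± 0.12, adjusted p = 0.00023). Jun and Junb, other AP-1 subunits, had log2 fold changes of -0.16 and -0.08 and did not pass. The falls numbered 3 without mitochondria 0 h replicate 2, 2 h replicate 1 or 2 h replicate 2.

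The largest fall among the named genes was in Rgs16 (ENSMUSG00000026475, chromosome 1, 153740349 to 153745468, plus strand), which switches off G proteins downstream of receptors. It had 2.34 and 2.52 RPM at 2 h against 11.5 and 10.8 RPM at 0 h (log2 -2.20 ± 0.11, adjusted p = 4.4e-07), with 9.48 and 9.11 RPM at 1 h. Of 13 Rgs genes, Rgs16 was the only fall and Rgs3 the only rise, at 3.24 and 3.37 RPM at 2 h against 2.00 and 1.76 RPM at 0 h; no Rgs gene rose on the deposited scale or without mitochondria 0 h replicate 2, 2 h replicate 1 or 2 h replicate 2. Of 21 genes of ERK feedback 3 rose and 3 fell (2 and 10 on the deposited scale). Rises and falls were each 14.3% of that list, against 807 and 1244 of 9954 genes with at least 50 reads. Dusp6, a phosphatase that acts on ERK, had 2.55 and 2.97 RPM at 2 h against 8.84 and 6.88 RPM at 0 h (log2 -1.50 ± 0.18, adjusted p = 0.00043), and 19.8 and 17.0 RPM at 1 h. Spry2, an inhibitor of receptor tyrosine kinases, had 2.12 and 1.60 RPM at 2 h against 3.89 and 4.37 RPM at 0 h (log2 -1.16 ± 0.16, adjusted p = 0.00086), and 5.11 and 5.08 RPM at 1 h. The ERK rises numbered 1 without mitochondria 0 h replicate 1 or 2 h replicate 2. Dusp6 and Spry2 were thus highest at 1 h and lowest at 2 h. The 1 h and 2 h values are set against the same 0 h libraries.

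Among the lists, histone genes gave the most rises by number. Of 66 tested histone cluster genes and H1 histones 37 rose and none fell, with a median of 0.69, which was 0.35 on the deposited scale, where 22 rose and 2 fell. H1f0, a linker histone that is also made in resting cells, had 70.4 and 78.0 RPM at 2 h against 26.1 and 27.2 RPM at 0 h (log2 1.48 ± 0.08, adjusted p = 5.6e-07). H1f4, another linker histone, had 209 and 209 RPM at 2 h against 99.9 and 111 RPM at 0 h (log2 0.99 ± 0.06, adjusted p = 3e-06), and H4c14, a copy of the core histone H4, had 86.5 and 83.8 RPM at 2 h against 35.4 and 39.8 RPM at 0 h (log2 1.18 ± 0.08, adjusted p = 3e-06). The 1 h values of H1f0, 56.9 and 53.9 RPM, were already above those at 0 h. Without mitochondria 0 h replicate 1 or 2 h replicate 2, 19 and 21 histone genes rose. Copies of core histone genes share sequence, so reads may be split among them, and their RNAs mostly lack the poly(A) tail, which these rRNA-depleted libraries do not require.

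Of 35 mitotic and G2/M genes 15 fell and none rose, with a median of -0.30. On the deposited scale 30 fell, where 5375 of all 21079 genes fell. Anln, which encodes anillin of the cleavage furrow, had 29.4 and 29.0 RPM at 2 h against 50.9 and 48.9 RPM at 0 h (log2 -0.77 ± 0.07, adjusted p = 6e-05), Plk1, a mitotic kinase, had 13.2 and 13.3 RPM at 2 h against 22.4 and 21.1 RPM at 0 h (log2 -0.72 ± 0.09, adjusted p = 0.00052), and Kif20b, a kinesin of cytokinesis, had 4.79 and 4.87 RPM at 2 h against 11.4 and 11.2 RPM at 0 h (log2 -1.23 ± 0.09, adjusted p = 1.5e-05). Ccnb1 and Cdk1, which drive mitosis, and Top2a, a DNA topoisomerase, had log2 fold changes of -0.15, -0.15 and -0.12 and did not pass. Of 35 genes of DNA replication and G1/S 4 rose and 1 fell, with a median of 0.12 that turned to -0.23 on the deposited scale. The rises numbered 2 without either 2 h library. Cdt1, which licenses replication origins, had 19.2 and 19.9 RPM at 2 h against 13.5 and 14.8 RPM at 0 h (log2 0.47 ± 0.08, adjusted p = 0.0041).

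Of 48 collagens, laminins and matrix glycoproteins 26 fell and none rose, with a median of -0.33, and 39 fell on the deposited scale. In the nuclear preparation the median of the same genes was 0.01. Col5a1, a fibrillar collagen chain, had 166 and 177 RPM at 2 h against 229 and 233 RPM at 0 h (log2 -0.43 ± 0.05, adjusted p = 0.00038). Prelp, a leucine-rich matrix protein, had 6.55 and 7.13 RPM at 2 h against 13.4 and 14.8 RPM at 0 h (log2 -1.04 ± 0.15, adjusted p = 0.0011), with 6.94 and 4.91 RPM at 1 h. Fn1, fibronectin, had 967 and 967 RPM at 2 h against 1206 and 1206 RPM at 0 h and did not pass (log2 -0.32 ± 0.09, adjusted p = 0.051). Without mitochondria 0 h replicate 2, 2 h replicate 1 or 2 h replicate 2 the falls numbered 14, 15 and 17.

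Genes of lysosomal proteins and of endocytic receptors, which like matrix proteins are made at the endoplasmic reticulum, gave falls and few rises. Of 35 lysosomal genes 16 fell and 1 rose, with a median of -0.36 against -0.01 in the nuclear preparation. Psap, the precursor of the saposins, had 115 and 119 RPM at 2 h against 162 and 173 RPM at 0 h (log2 -0.52 ± 0.06, adjusted p = 0.00024), Ctsd, the protease cathepsin D, had 63.1 and 61.4 RPM at 2 h against 86.1 and 90.6 RPM at 0 h (log2 -0.50 ± 0.07, adjusted p = 0.0008), and Grn, progranulin, had 27.1 and 26.2 RPM at 2 h against 36.7 and 38.6 RPM at 0 h (log2 -0.50 ± 0.07, adjusted p = 0.001). With any 1 of the 4 libraries left out the lysosomal falls numbered between 6 and 10. Of 16 genes of the LDL receptor family and of sorting receptors 6 fell and none rose. Lrp1, an endocytic receptor, had 449 and 481 RPM at 2 h against 627 and 627 RPM at 0 h (log2 -0.43 ± 0.04, adjusted p = 0.00013), and Igf2r, which carries enzymes to lysosomes, had 140 and 135 RPM at 2 h against 204 and 196 RPM at 0 h (log2 -0.54 ± 0.05, adjusted p = 0.00013). The receptor falls numbered 3 without mitochondria 0 h replicate 2 or 2 h replicate 1. The difference between the preparations did not pass in any gene of these lists over all 21079 genes; among genes with at least 10 reads in 2 libraries it passed for the lysosomal enzymes Arsa (-0.81) and Gaa (-0.61).

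Targets of YAP and SRF, which report cell tension and serum, gave 8 falls and 1 rise among 24. Flna, filamin A, had 281 and 281 RPM at 2 h against 383 and 398 RPM at 0 h (log2 -0.48 ± 0.04, adjusted p = 4.6e-05). Ccn1, a secreted matrix regulator, had 29.9 and 31.3 RPM at 2 h against 54.6 and 62.0 RPM at 0 h (log2 -0.93 ± 0.08, adjusted p = 5.2e-05), and Thbs1, thrombospondin, had 63.9 and 67.1 RPM at 2 h against 106 and 115 RPM at 0 h (log2 -0.75 ± 0.07, adjusted p = 7.6e-05). Ccn2, the other standard YAP target, had 30.4 and 29.8 RPM at 2 h against 31.3 and 34.2 RPM at 0 h and did not pass. The falls numbered 4 without mitochondria 0 h replicate 2. Of 28 genes of the BMP and Notch pathways 7 fell and none rose. The ligand Bmp4 had 1.89 and 2.10 RPM at 2 h against 5.51 and 5.38 RPM at 0 h (log2 -1.45 ± 0.17, adjusted p = 0.00034), and the receptor Notch3 had 7.71 and 7.64 RPM at 2 h against 13.0 and 14.8 RPM at 0 h (log2 -0.85 ± 0.11, adjusted p = 0.00052). The BMP target Id1 had a log2 fold change of -0.40 and did not pass. These falls numbered between 2 and 5 with any 1 of the 4 libraries left out.

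**Figure D3:**
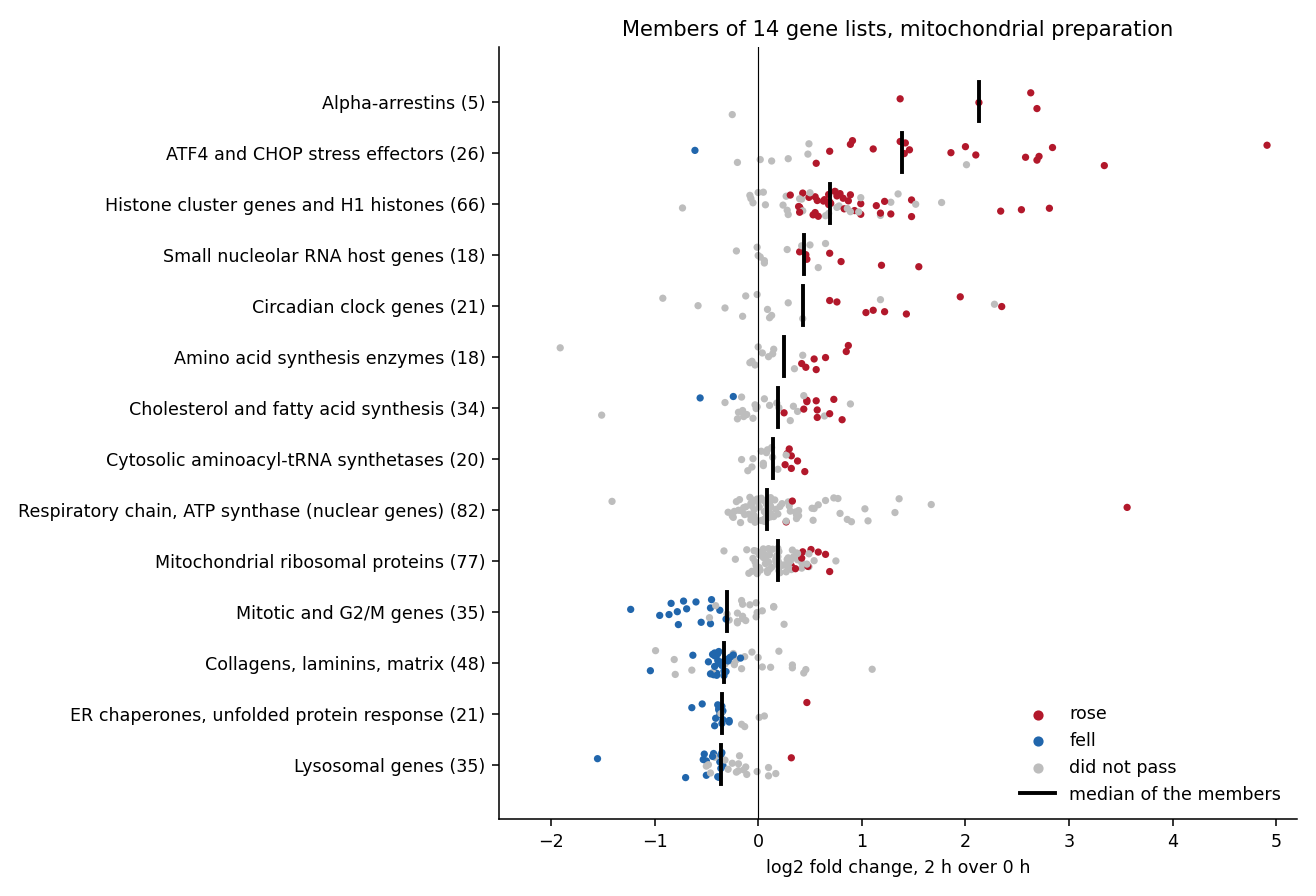
Log2 fold change at 2 h over 0 h in the mitochondrial preparation for every tested member of 14 gene lists (number of members in parentheses), coloured where past the limma threshold, with the median of each list as a bar. The alpha-arrestins (median 2.13), ATF4 and CHOP effectors (1.39) and histones (0.69) lie to the right; the matrix (-0.33), endoplasmic reticulum (-0.35) and lysosomal (-0.36) lists lie to the left. The medians of the amino acid synthesis, cholesterol, aminoacyl-tRNA synthetase, respiratory chain and mitochondrial ribosome lists turn below 0 on the deposited scale.

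Long non-coding RNAs kept in the nucleus and hosts of small nucleolar RNAs had calls in opposite directions. Of 11 nuclear and imprinted long non-coding RNAs 4 fell and none rose. Neat1 (ENSMUSG00000092274, chromosome 19, 5824708 to 5845478, minus strand), the scaffold of paraspeckles, had 16.5 and 16.7 RPM at 2 h against 47.0 and 47.3 RPM at 0 h (log2 -1.51 ± 0.08, adjusted p = 7.1e-07). Mir100hg, the host of several microRNAs, had 3.27 and 3.09 RPM at 2 h against 8.36 and 8.56 RPM at 0 h, and Lncpint, a p53-induced RNA, had 0.903 and 1.17 RPM at 2 h against 2.90 and 2.98 RPM at 0 h. Malat1 fell by 0.37 ± 0.07 (adjusted p = 0.006). Neat1 and Mir100hg were higher in the nuclear preparation, where Neat1 had 49.4 and 49.5 RPM at 2 h against 129 and 110 RPM at 0 h, so the fall was present in both. Of 18 small nucleolar RNA host genes 7 rose and none fell, with a median of 0.44 against 0.03 in nuclei, while on the deposited scale 3 rose and 3 fell, with a median of 0.11. Snhg5 had 12.9 and 12 RPM at 2 h against 4.18 and 4.30 RPM at 0 h (log2 1.55 ± 0.12, adjusted p = 1.4e-05), and Gas5, whose RNA accumulates in arrested cells, had 24.0 and 23.9 RPM at 2 h against 17.5 and 18.8 RPM at 0 h (log2 0.40 ± 0.07, adjusted p = 0.0047), with no change on the deposited scale (0.00).

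Of 31 splicing kinases and speckle proteins 4 rose and 7 fell, and on the deposited scale none rose and 21 fell. Rsrp1, a serine and arginine rich protein, had 4.34 and 3.34 RPM at 2 h against 10.6 and 9.05 RPM at 0 h (log2 -1.37 ± 0.14), and the splicing regulator Rbm25 had 26.7 and 26.4 RPM at 2 h against 41.1 and 43.9 RPM at 0 h (log2 -0.68 ± 0.08, adjusted p = 0.00044). Tra2b, which binds splicing enhancers, had 32.2 and 31.9 RPM at 2 h against 20.8 and 15 RPM at 0 h and rose by 0.86 ± 0.14 (adjusted p = 0.0022). Without mitochondria 2 h replicate 2 the rises numbered 2 and the falls 3, and without 0 h replicate 2 the rises numbered 2. Cirbp, an RNA-binding protein induced by mild cold, had 9.41 and 10.2 RPM at 2 h against 3.06 and 2.44 RPM at 0 h (log2 1.84 ± 0.12, adjusted p = 5e-06). Of 18 heat shock genes 2 fell and none rose. These falls were 11.1% of the list, against 6.78% of all genes and 1244 of 9954 genes with at least 50 reads.

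Nuclear genes for mitochondrial proteins changed little in the mitochondrial preparation. Of 82 subunits of the respiratory chain and ATP synthase 3 rose and none fell, 3.7% against 4.65% of all genes, with a median of 0.09 that turned to -0.28 on the deposited scale. The 3 were the complex I subunits Ndufc2 and Ndufv2, with log2 fold changes of 0.33 ± 0.10 and 0.27 ± 0.08 (adjusted p = 0.045 and 0.048), and Cox6a2, with 12 and 6 reads at 2 h against 0 and 0 reads at 0 h. On the deposited scale Ndufc2 and Ndufv2 had -0.03 and -0.12. Of 77 mitochondrial ribosomal proteins 9 rose and none fell, with a median of 0.19 that turned to -0.17 on the deposited scale, and between 1 and 4 rose with any 1 of the 4 libraries left out. Mrpl17, of the large subunit, had 14.3 and 13.4 RPM at 2 h against 10.0 and 9.42 RPM at 0 h (log2 0.51 ± 0.08, adjusted p = 0.0029).

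Of 36 factors of mitochondrial gene expression 1 rose and 1 fell, and on the deposited scale none rose and 10 fell. Each was 2.8% of the list, against 4.65% rising and 6.78% falling of all genes. The fall was Polrmt, the RNA polymerase of mitochondria, with 7.13 and 6.75 RPM at 2 h against 10.8 and 11.4 RPM at 0 h (log2 -0.68 ± 0.11, adjusted p = 0.0024), and the rise was Tbrg4, which stabilizes mitochondrial messages, with 16.2 and 17.6 RPM at 2 h against 12.2 and 14.2 RPM at 0 h (log2 0.36 ± 0.09, adjusted p = 0.025; -0.03 on the deposited scale). Tfam, which packages mitochondrial DNA, had 9.10 and 11.7 RPM at 2 h against 8.43 and 8.30 RPM at 0 h and did not pass (adjusted p = 0.17). Of 42 genes of import, proteases and dynamics 4 rose and none fell, with a median of 0.06 that turned to -0.30 on the deposited scale, where none rose and 19 fell. The 4 rises were 9.5% of the list, against 4.65% of all genes and 807 of 9954 genes with at least 50 reads. Among the rises was Tomm6, a small subunit of the outer membrane import pore, with 21.8 and 24.2 RPM at 2 h against 14.5 and 16.2 RPM at 0 h (log2 0.59 ± 0.09, adjusted p = 0.0014); with any 1 of the 4 libraries left out 2 rose. Of 20 genes of mitochondrial motor adaptors and RNA anchors 5 fell and none rose (13 falls on the deposited scale). Akap1, which anchors messages at the outer membrane, had 8.57 and 9.45 RPM at 2 h against 11.2 and 12.4 RPM at 0 h (log2 -0.39 ± 0.10, adjusted p = 0.033), and Pum2, an RNA-binding repressor, had 21.3 and 21.4 RPM at 2 h against 32.7 and 36.1 RPM at 0 h (log2 -0.69 ± 0.09, adjusted p = 0.00054). The anchor falls numbered 2 or 3 with any 1 of the 4 libraries left out.

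Some genes of cholesterol synthesis rose. Of 34 genes of cholesterol and fatty acid synthesis 10 rose and 2 fell, with a median of 0.19 that turned to -0.22 on the deposited scale, where 3 rose and 14 fell. Insig1, the sterol-regulated retention factor of SREBP, had 19.1 and 21.2 RPM at 2 h against 12.3 and 12.7 RPM at 0 h (log2 0.69 ± 0.08, adjusted p = 0.00023), and Hmgcs1, an early enzyme of the pathway, had 53.4 and 53.3 RPM at 2 h against 35.4 and 36.7 RPM at 0 h (log2 0.57 ± 0.07, adjusted p = 0.00047). Without mitochondria 0 h replicate 2 or 2 h replicate 2, 6 genes rose. Of 48 genes of glycolysis and pyruvate use 2 rose and 2 fell, and on the deposited scale 1 rose and 17 fell. Rises and falls were each 4.2% of the list, against 4.65% and 6.78% of all genes. Pfkfb3, which makes the activator of phosphofructokinase, had 7.49 and 6.94 RPM at 2 h against 4.60 and 3.66 RPM at 0 h (log2 0.81 ± 0.13, adjusted p = 0.0023), and Pfkl, the liver-type phosphofructokinase, had 26.6 and 27.5 RPM at 2 h against 34.8 and 35.1 RPM at 0 h (log2 -0.37 ± 0.07, adjusted p = 0.0056). Of 17 HIF targets 3 rose and 2 fell, which is 17.6% and 11.8% (1 and 5 genes on the deposited scale). Kdm3a, a histone demethylase, was a fall, with 5 and 4.67 RPM at 2 h against 10.0 and 10.5 RPM at 0 h (log2 -1.08 ± 0.13, adjusted p = 0.00033).

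The last pair of lists held zinc finger genes and cytosolic ribosomal protein genes. Of 180 zinc finger genes between Zfp500 and Zfp999, mostly repressors, 16 rose and 3 fell, with a median of 0.20 that turned to -0.13 on the deposited scale; between 5 and 7 rose with any 1 of the 4 libraries left out. The 80 cytosolic ribosomal protein genes summed to 5726 and 5715 RPM at 2 h, against 4766 and 2137 RPM in 0 h replicates 1 and 2. Of them 3 rose in the comparison and 32 rose with a term for the pseudogene split of the libraries. Their median of 1.27, which was 0.22 with that term, therefore moves with 0 h replicate 2.

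The share of rises and falls moved with gene length. Protein-coding genes with at least 50 reads were put into 5 groups by the span of the gene from start to end, introns included. The group of shortest genes, up to 9.5 kb, had a median log2 fold change of 0.11, with 11.9% rising and 5.86% falling. The group of longest genes, from 74.9 kb, had a median of -0.13, with 3.45% rising and 19.2% falling. The medians of the groups between were 0.04, -0.01 and -0.08, and the order held in every setting tried and in each pair of a 2 h and a 0 h library. In nuclei the medians were 0.11, 0.05, -0.02, -0.08 and -0.12. Grouped by exonic length in the same way, the shortest genes had a median of 0.12 with 4.97% falling and the longest a median of -0.14 with 22.34% falling. Falls also moved with level, at 5.39% in the group of lowest level and 21.51% in the group of highest level. Rises moved with level in the same direction, from 5.23% to 10.36%. The median log2 fold changes of these groups, -0.001 and -0.027, differed little, unlike those by span. Span, exonic length and level were not separated. Whether reads in introns were counted is not given in the sources used here, and its part in this pattern was not tested.

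**Figure D4:**
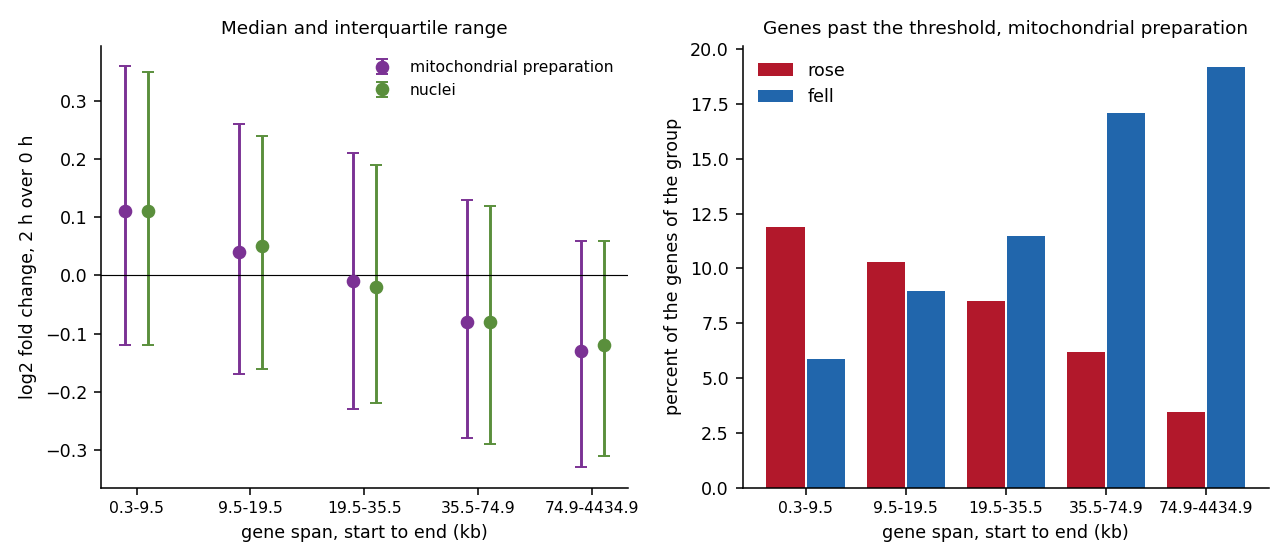
Left, median and interquartile range of the log2 fold changes at 2 h over 0 h in the mitochondrial and nuclear preparations, by group of gene span (kb); right, percent of the genes of each group that rose or fell in the mitochondrial preparation. Rises go down from 11.9% to 3.45% and falls go up from 5.86% to 19.2% with span.

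The effect of 2 h was then compared between preparations. Of the 981 genes that rose in the mitochondrial preparation 492 also rose in nuclei, and of the 1429 that fell 605 also fell there, while 2 and 5 were past the threshold in the opposite direction. The test of the difference itself passed for 1 gene, 0.00474% of those tested, with 2061 genes at an unadjusted p under 0.05. This count was unstable: it was 104 among genes with at least 10 reads in 2 libraries, 207 with a term for the pseudogene split, 335 with median centring, 61 with limma voom and 4 on the deposited scale. No other gene is called particular to either preparation here.

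The gene was Bc1, a short non-coding RNA made by RNA polymerase III in rodent neurons, which is known to repress translation in the cytoplasm. It was chosen after its values were seen. Bc1 (chr7:144914470-144914637, plus strand, GRCm38) is 168 bases long, and its run of 23 A residues, bases 77 to 99, is in capitals.
Bc1: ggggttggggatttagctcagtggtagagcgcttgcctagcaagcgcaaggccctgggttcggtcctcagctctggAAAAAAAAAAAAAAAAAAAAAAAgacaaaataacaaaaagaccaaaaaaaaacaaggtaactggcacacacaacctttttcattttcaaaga
Bc1 had 22.7 and 22.7 RPM at 2 h against 10.7 and 10.4 RPM at 0 h in the mitochondrial preparation, and 32.8 and 31.7 RPM at 2 h against 47.2 and 44.6 RPM at 0 h in nuclei. It thus rose in the mitochondrial preparation, by a log2 fold change of 1.10 ± 0.10 (limma adjusted p = 4.5e-05), and fell in nuclei, by 0.51 ± 0.10 (adjusted p = 0.0063). The nuclear fall did not pass without nuclei 0 h replicate 1 (adjusted p = 0.074) or nuclei 2 h replicate 2 (0.054), with no filter (0.054), without trend and robust moderation (0.059) or in the 8 libraries outside the pseudogene split (0.078). The difference was 1.61 ± 0.14 (adjusted p = 0.0015) and lay between 1.51 and 1.75 under the alternatives, with an adjusted p of 0.17 in the 8 libraries outside the pseudogene split. Bc1 gave rise to a family of repeats in the genome, and how reads with several matches were counted is not given in the sources used here.

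Other genes passed for the difference only under some of the alternatives. With at least 10 reads in 2 libraries, 34 genes had a higher and 70 a lower effect in mitochondria. Ncl, which encodes nucleolin, had 398 and 398 RPM at 2 h against 281 and 270 RPM at 0 h in the mitochondrial preparation and 209 and 204 RPM at 2 h against 199 and 196 RPM at 0 h in nuclei, a difference of 0.46 ± 0.06 (adjusted p = 0.058 over all genes and 0.013 over that smaller set). The Ncl difference was 0.24 on the deposited scale (adjusted p = 0.31) and -0.01 with median centring (adjusted p = 0.98), so it depends on the scaling. Flna had 353 and 353 RPM at 2 h against 367 and 353 RPM at 0 h in nuclei, and the difference from its mitochondrial fall was -0.45 ± 0.06 (adjusted p = 0.058, and 0.013 in the smaller set). The Flna difference was -0.44 on the deposited scale (adjusted p = 0.071) and -0.69 with median centring (adjusted p = 1.1e-05). Both genes also passed with no filter, with a term for the pseudogene split, with the pseudocount and with limma voom, and neither passed with any 1 library left out. Col5a1 had 169 and 169 RPM at 2 h against 172 and 170 RPM at 0 h in nuclei, a difference of -0.41 ± 0.07 (adjusted p = 0.13, and 0.028 in the smaller set). Atf4 and Txnip had differences of 0.20 ± 0.08 and 0.12 ± 0.11 (adjusted p = 0.45 and 0.83).

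**Figure D5:**
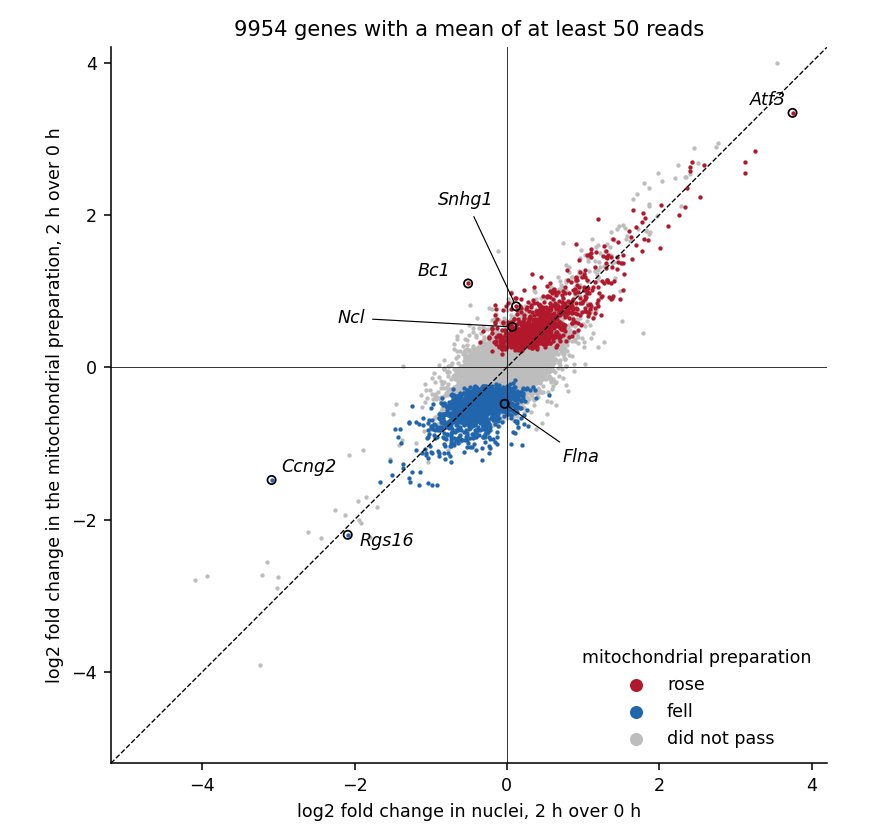
Log2 fold change at 2 h over 0 h in the mitochondrial preparation (vertical axis) against that in nuclei (horizontal axis) for 9954 genes with a mean of at least 50 reads, coloured by the call in the mitochondrial preparation. Bc1 lies above 0 on the vertical axis (1.10) and below 0 on the horizontal one (-0.51).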

How the data were processed

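RNA of C17.2 cells was sequenced in 12 libraries, 2 for each of 6 groups, as total RNA depleted of ribosomal RNA and prepared with NEBNext Ultra II, per the labels' protocols. Alignment and quantification tools listed by the submitters' processing notes are HISAT2, edgeR and StringTie, on build GRCm38; versions, strand and the treatment of introns and of reads with several matches are not given in the sources used here. The gene table holds log2 values that the authors deposited from SeqMonk, 1 per gene from start to end, and 52 repeated entries were left out to give 35321 genes. These log2 values were whole reads scaled to all reads of the library: with a tolerance of 0.05 reads, between 99.997% and 100% of the values came out whole, for scaling totals between 30.26 and 42.29 M reads. Genes at 0 reads stand at a library floor worth 0.9 reads. The transcript table holds FPKM values that the authors made with StringTie, per the file headers, for 7153 transcripts in 11 libraries; its 11 other columns of per-library values were not used.

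The main test was limma 3.58.1 in R 4.3.3, with trend and robust moderation, on log2 RPM after quantile normalization, fitting 6 group means to all 12 libraries, with Benjamini-Hochberg adjustment over 21079 genes at 0.05. The ± values are limma standard errors. The precision rests on 2 libraries per group; at 36.75 reads, the median tested gene also carries counting error. Count models were not used because the deposited values are log2; limma voom on the recovered reads was an alternative, as were other scalings, filters, a pseudocount of 0.1 RPM, a term for the library split, a replicate block and leaving out each library. Replicate numbers came from the titles. Named genes were the 25 largest changes in each direction among those past the threshold with a mean of at least 50 reads, separate groups, the same direction after median centring of the deposited scale and no predicted name or pseudogene in the table, and members of 42 gene lists beside their counts. Some items are not reported here. The members and lists were chosen with earlier results of these data known. Promoter windows came from RefSeq (GRCm38.p6) and were searched for 6 motifs. The scripts were tested on simulated data. Versions of Python (3.11.15), pandas (2.3.3) and numpy (2.4.6) apply to the rest.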

Additional observations from a re-analysis of the deposited data

Results flagged for a closer look

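Bc1 was the gene whose 2 h effect differed between the preparations by the test of the difference itself. Its log2 fold change was 1.10 ± 0.10 (SE) in the mitochondrial preparation and -0.51 ± 0.10 in nuclei, a difference of 1.61 ± 0.14 (limma adjusted p = 0.0015). The mitochondrial libraries held 763 and 744 Bc1 reads at 2 h against 406 and 396 reads at 0 h. The nuclear libraries held 1048 and 1098 Bc1 reads at 2 h against 2095 and 2391 reads at 0 h. These reads are not scaled to depth. Reads in genes numbered 5498223 and 5908090 in the 2 h nuclear libraries, against 7852814 and 9248146 at 0 h.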

How the results depend on the processing

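The rises numbered 358 and the falls 5375 on the deposited scale, 83 and 41 in the 8 libraries outside the pseudogene split alone, 517 and 728 with no filter, 524 and 673 without trend and robust moderation, and 280 and 395 with only the 4 libraries compared. Median centring gave 2362 falls. Leaving out 1 of the 4 libraries gave between 543 and 585 rises and between 651 and 903 falls, with the lone library of a group assumed to vary like the others. The other settings for these counts stayed within 1.5 times. The difference between preparations passed in 4 genes on the deposited scale, 335 with median centring, 207 with a term for the library split, 2 in the 8 libraries alone, 104 with at least 10 reads in 2 libraries, 131 with no filter, 13 without trend and robust moderation, 10 with a pseudocount of 0.1 RPM and 61 with limma voom; the cause was not tested. Of the 50 named genes, 46 kept their call with no filter, 42 with only the 4 libraries, 24 in the 8 libraries alone and between 47 and 49 without 1 library; none reversed. The replicate block gave 973 rises and 1415 falls; the deviations of same-numbered libraries correlated at 0.001 between mitochondria 0 h and 2 h and from -0.569 to 0.54 over all pairs of groups, so the numbers were not taken to pair the samples. Genes under 10 reads gave 106 of the rises and 115 of the falls among 8123 tested, so small changes were not detectable there.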
